A study of Mus musculus with 2 samples.

Results

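The histone genes described here were the 84 genes, of 24421 in the count files, whose symbol began with Hist1h to Hist4h, H2af, H3f3 or H1f. Of these, 68 with the Hist prefix were taken as replication-dependent genes and 16 as variant histone genes. Each class held 1 annotated pseudogene, Hist3h2bb-ps and H2afy3. All 84 were read in 2 RNA-seq libraries of mouse hematopoietic stem cells (HSCs), 1 library per group. No difference therefore had a replicate check, and every interval below covers counting error only. Both groups were C57BL/6 bone marrow carrying CreERT+/-, with Ezh2 +/+ in the WT library and Ezh2 Δ/Δ in the library labelled Ezh2 KO. Donor CD45.2 marrow was grafted into lethally irradiated CD45.1 hosts, and the protocol, given identically for both libraries, describes 5 daily injections of 100 μl tamoxifen at 10 mg/ml. HSCs were sorted 1 month later as CD150+ cells of the Lin- Sca-1+ c-kit+ gate that lacked CD34, CD48 and Flt3. Ezh2 encodes the methyltransferase of polycomb repressive complex 2. The age of the mice, the promoter behind CreERT and the number of animals pooled per library were not given in the sources used here.

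The targeted gene, Ezh2, had 166 raw counts with the WT label and 129 with the Ezh2 KO label, which scaled to 142.5 and 150.3 normalised counts (log2 ratio 0.08, exact 95% interval −0.27 to 0.42). The gene count did not separate the libraries by genotype. Which exons Ezh2 Δ/Δ lacks is not given in the sources used here, and a count over the whole gene includes the exons outside a deletion. The label is therefore used below as a name, and WT and KO stand for the library labelled so. Totals over genes were 5763118 counts (WT) and 4157280 counts (KO), and a count of 3, taken as the floor, equalled 0.521 and 0.722 CPM (counts scaled to the gene total of the library). All 12 HSC markers had counts in both libraries, from 120 upward. None of them was called, against 5.11% of all genes tested. The 95% interval lay below 0 for 4 and above it for 2, against 20.8% and 19.2% of all genes tested. Slamf1, which encodes the CD150 of the gate, had 520 and 248 counts (log2 ratio −0.63, −0.85 to −0.41). Markers of other blood cells differed between the libraries and are given with the results they accompany.

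Histones wrap DNA into nucleosomes: H2A, H2B, H3 and H4 form the core, and H1 binds the linker DNA between cores. Replication-dependent genes lie in clusters, mostly lack introns and are transcribed in S phase to package new DNA. Their mRNAs end in a conserved 3′ stem-loop bound by the stem-loop binding protein in place of a poly(A) tail. Variant genes are expressed throughout the cell cycle from polyadenylated, mostly spliced mRNAs, and their products replace the canonical histones at particular sites. HSCs of adult marrow are largely quiescent. The libraries were made with a SMARTer Ultra Low Input kit, which primes cDNA synthesis from poly(A) tails, so a replication-dependent mRNA enters them only if it carries such a tail or an A-rich stretch.

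The 3′ stem-loop is printed first because it sets the gene classes apart at the sequence level. It was found within 150 bases of the stop codon in 46 of 68 replication-dependent genes and in 1 of 16 variant genes, H2afx. The share was 0.0574% of 20901 other protein-coding genes with at least 16 bases after the stop codon (GENCODE transcripts, GRCm38). Members were not held to that minimum. Some replication-dependent genes without it have short annotated transcripts, such as 312 bases in Hist1h4k and 381 in Hist1h2bl. Absence from such a transcript does not show that the gene lacks the stem-loop. In longer transcripts, bases beyond the first 150 after the stop codon were not searched. In all 47 members the stem of 6 bases was perfectly paired around a loop of 4 bases, and it lay 21 to 58 bases after the stop codon (median 31). The search pattern fixed GG and CC at the ends and set pyrimidines opposite purines in the stem. Much of this pairing was therefore built into the search. Capitals mark the stem-loop of 16 bases, with 5 flanking bases on each side. It is shown for the abundant members that carry it, for Hist1h3e as an H3 gene, for Hist1h2ac and for H2afx. Hist1h2ac had the largest ratio of the histone genes tested.

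Hist1h1e: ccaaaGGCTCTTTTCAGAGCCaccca
Hist1h1c: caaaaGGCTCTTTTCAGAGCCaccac
Hist3h2a: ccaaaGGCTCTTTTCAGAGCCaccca
Hist1h2ac: ccaaaGGCTCTTTTCAGAGCCcccac
Hist1h3e: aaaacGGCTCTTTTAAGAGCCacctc
Hist1h4d: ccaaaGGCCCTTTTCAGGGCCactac
H2afx: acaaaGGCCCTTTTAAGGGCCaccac

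The stem followed the histone family. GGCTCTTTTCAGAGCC stood in 26 members, of which 3 were H1, 10 H2A, 8 H2B and 5 H3 genes, and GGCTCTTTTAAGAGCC in 6 more H1, H2B and H3 genes. Single H3 and H2A genes, Hist1h3g and Hist2h2ac, had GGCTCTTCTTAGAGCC and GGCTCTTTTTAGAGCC. The 12 H4 genes with a stem-loop used other letters, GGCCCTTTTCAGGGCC in 7, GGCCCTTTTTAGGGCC and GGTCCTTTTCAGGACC in 2 each and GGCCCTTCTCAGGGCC in 1. The H2afx stem, GGCCC, is the one otherwise seen only in H4 genes among the members, although H2afx encodes an H2A. On GRCm38 the stem-loops shown lie on the plus strand at chr13:23739512-23739527 (Hist1h1c), chr11:58955172-58955187 (Hist3h2a), chr13:23581950-23581965 (Hist1h4d) and chr9:44335240-44335255 (H2afx). They lie on the minus strand at chr13:23621782-23621797 (Hist1h1e), chr13:23683477-23683492 (Hist1h2ac) and chr13:23561903-23561918 (Hist1h3e). All of them are in the 3′ UTR of an annotated transcript.

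Histone RNA in these libraries was almost all variant RNA. Variant genes held 25692 of 26597 histone counts in the WT library (96.6%, Wilson 95% interval 96.4 to 96.8) and 20402 of 20967 in the KO library (97.3%, 97.1 to 97.5). The 68 replication-dependent genes together held 905 and 565 counts, or 0.0157% and 0.0136% of all gene counts, whereas the 16 variant genes held 0.446% and 0.491%. H3f3b alone, with 10435 and 7845 counts, held more than 10 times the summed counts of all replication-dependent genes in each library. In bulk samples such as these, fewer cells that express a gene and less RNA per cell cannot be told apart. Of the replication-dependent genes, 34 had no count in either library, whereas 39.2% of all genes had none, and 13 reached a mean of 1 CPM, the minimum for a test. Of the variant genes, 10 reached it and the other 6 had no count in either library. These were H1fnt and H1foo, linker histones of germ cells, H2afb1, H2afb2 and H2afb3, also known from testis, and the pseudogene H2afy3. At these depths 0 counts allow a level of up to 0.521 CPM (WT) and 0.722 CPM (KO).

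**Figure D1:**
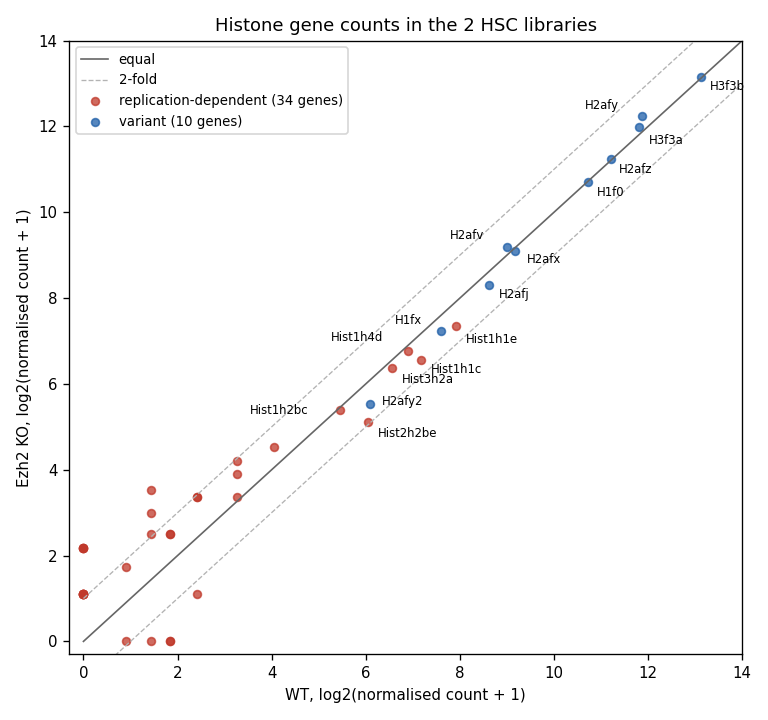
Normalised counts of the 44 histone genes with a count in either library, as log2(normalised count + 1), WT on the horizontal and Ezh2 KO on the vertical axis. Each point is 1 gene, the solid line marks equal levels and the dashed lines a 2-fold difference. Variant genes lie at the upper right along the line of equality, and most replication-dependent genes lie at the lower left, where counts are under 20.

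No histone gene was called different between the libraries. The call needed a Benjamini-Hochberg adjusted value below 0.01 over all 12588 genes tested, by an exact binomial test of both counts, and at least a 2-fold ratio. By that rule 0 of 13 replication-dependent and 0 of 10 variant genes tested were called, against 5.11% of all genes tested. Regardless of the test, 1 of the 23 was at least 2-fold apart (Hist1h2ac), against 8.81% of all genes tested. The 95% interval lay below equality for 3 of 13 replication-dependent and 2 of 10 variant genes, against 20.8% of all genes tested, and above it for 1 of 13 and 3 of 10, against 19.2%. With so few members these counts do not stand apart from the shares over all genes. The median log2 ratio (KO over WT, 1 added to each normalised count) was 0.11 for the 13 replication-dependent genes, 7 above and 6 below 0, and −0.001 for the 10 variant genes, 5 on each side, against −0.003 for all genes tested. Both medians changed sign under some other processing and are not read as a direction. Hist1h1a, Hist1h2bg and Hist1h2ac reached the minimum for a test only through the KO library, where they were higher.

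**Figure D2:**
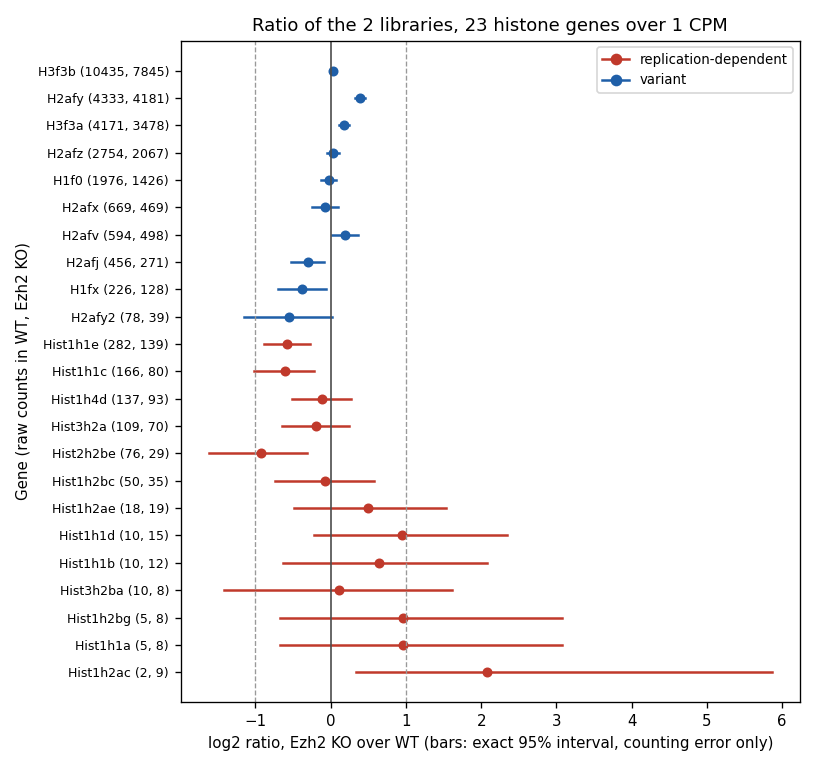
Log2 ratio of normalised counts, Ezh2 KO over WT, for the 23 histone genes with a mean of at least 1 CPM, with exact 95% intervals for counting error, since each group had 1 library. Raw counts stand beside each symbol, and dashed lines mark 2-fold. Variant genes lie within 0.55 of 0, the 6 most abundant replication-dependent genes lie below 0, and the rarer ones have wide intervals. Of the rarer ones, Hist1h1a, Hist1h2bg and Hist1h2ac reached the minimum only through KO.

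Linker histone genes made up the largest replication-dependent family by counts, and the interval of their summed ratio lay below 0. The 6 H1 genes had 473 counts in WT and 254 in KO, 52.3% and 45.0% of the replication-dependent counts, and their summed log2 ratio was −0.46 (95% interval −0.68 to −0.23). Hist1h1e had 282 and 139 counts, or 242.0 and 162.0 normalised counts (log2 ratio −0.58, −0.88 to −0.28). Hist1h1c, at 166 and 80 counts, had 142.5 and 93.2 normalised counts (log2 ratio −0.61, −1.02 to −0.22). Both are the somatic H1 genes that remain expressed in many nondividing cells. Their ratios were 1.49-fold and 1.52-fold, short of the 2-fold limit, with adjusted values of 0.00074 and 0.0078 in the exact binomial test. The level of Hist1h1e relative to Hist1h1c was nearly equal in the libraries, 1.37 times by length in WT and 1.40 times in KO. The other 3 H1 genes with counts had few: Hist1h1d had 10 and 15, Hist1h1b 10 and 12, and Hist1h1a 5 and 8. Their log2 ratios of 0.95, 0.65 and 0.96 were above 0, and all 3 intervals spanned equality. The median over the 5 H1 genes tested was 0.65, so the sum below 0 followed Hist1h1e and Hist1h1c. The testis gene Hist1h1t had no counts. Hist1h1e overlaps Hist1h2be on the same strand, and only 69.4% of its read-length windows occur in no other annotated gene.

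Of the H2A genes, Hist3h2a supplied most counts. It had 109 counts in WT and 70 in KO, or 93.5 and 81.6 normalised counts (log2 ratio −0.20, −0.65 to 0.25), a difference within counting error. It overlaps Trim17, which had 0 counts in both libraries. Hist1h2ae followed with 18 and 19 counts (log2 ratio 0.49, −0.49 to 1.53). Hist1h2ac, named after its values were seen, had 2 counts in WT and 9 in KO (1.7 and 10.5 normalised counts), with a log2 ratio of 2.08 and an interval of 0.34 to 5.86. Of the 18 H2A genes, 10 had no count in either library, and the family sum of 139 and 109 counts gave a log2 ratio of 0.09 (−0.28 to 0.46).

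Among the H2B genes, Hist2h2be and Hist1h2bc held most of the counts. Hist2h2be, also named after its values were seen, had 76 counts in WT and 29 in KO, or 65.2 and 33.8 normalised counts (log2 ratio −0.93, −1.62 to −0.31), 1.90-fold lower in KO and just short of the 2-fold limit. Its transcript shared no window with another gene. Hist1h2bc had 50 and 35 counts (42.9 and 40.8 normalised counts), and its log2 ratio of −0.07 (−0.74 to 0.58) spanned equality. Of the 19 H2B genes, 10 had no count in either library. The summed counts of 145 and 87 had a log2 ratio of −0.30 (−0.70 to 0.10).

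Counts for H3 and H4, the core pair that forms a tetramer, came from very few genes. No H3 gene of the Hist clusters reached the minimum for a test. The 12 H3 genes had 7 counts in WT and 10 in KO, of which Hist1h3e had 2 and 6, and their summed log2 ratio of 0.96 had an interval of −0.59 to 2.59. They were 0.774% and 1.77% of the replication-dependent counts, although H3 is as abundant in the nucleosome as any other core histone. Hist1h4d carried 137 of 141 H4 counts in WT and 93 of 105 in KO. Its 117.6 and 108.4 normalised counts gave a log2 ratio of −0.12 (−0.51 to 0.27), and the family sum gave 0.02 (−0.36 to 0.39). Neither family differed beyond counting error at this depth.

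**Figure D3:**
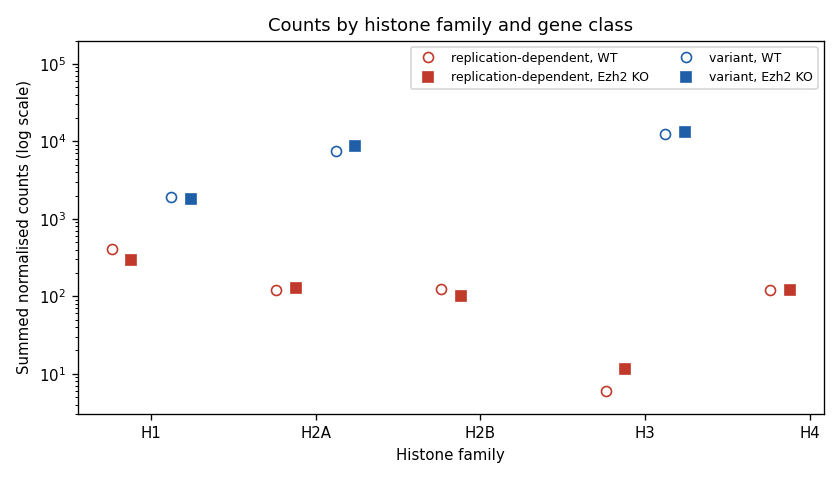
Summed normalised counts per histone family on a log scale, with circles for WT and squares for Ezh2 KO (1 library each, no error bars). Variant sums exceed replication-dependent sums in H1, H2A and H3, the rule held no variant H2B or H4 gene, and replication-dependent H3 is the lowest, at 6.0 and 11.7 normalised counts.

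Abundant and rare replication-dependent genes had summed ratios on opposite sides of 0. This split, at a mean of 20 normalised counts, was chosen after the values were seen and is given without a test. The 6 genes above it (Hist1h1e, Hist1h1c, Hist1h4d, Hist3h2a, Hist2h2be and Hist1h2bc) had 820 counts in WT and 446 in KO. They were 90.6% and 78.9% of the replication-dependent counts, their summed log2 ratio was −0.44 (−0.61 to −0.27), and all 6 ratios were below 0, 3 of them with intervals that spanned equality. The 62 genes below it had 85 and 119 counts, and their summed log2 ratio was 0.93 (0.51 to 1.35), or 0.85 without Hist1h2ac. Of the 28 of them with a count, 23 were higher and 5 lower in KO. The 7 that were tested had ratios above 0, but only 1 interval excluded equality. Counts appeared in both libraries for 19 replication-dependent genes, in WT only for 4 and in KO only for 11. None of these 15 exceeded 3 counts. Of all 24421 genes, 14141 had a count in WT and 14022 in KO, beside 23 and 30 of the 68 replication-dependent genes. Neither library had a count for 9566 of all genes, beside 34 of the 68. The share of all genes with a count in 1 library only was not computed, so the 4 and 11 are not read as a direction. Both summed log2 ratios kept their sign with scaling by the trimmed mean of M values, with scaling by total counts and after thinning to equal depth.

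Summed counts of 4 marker lists of other blood cells were higher in the KO library in the same comparison, with single markers in both directions. Summed counts of 8 eosinophil markers were 12 in WT and 3221 in KO, with 5 of 6 tested called higher. The granule protein genes Prg2 and Epx had 0 counts in WT and 2030 and 1000 in KO. The 12 neutrophil markers summed to 12073 and 16335 counts with 6 called higher, the 12 erythroid markers to 470 and 943 with 4 called higher of 8 tested, and the 10 B lymphoid markers to 279 and 421 with 5 called higher of 6 tested. These called counts stand against 5.11% of all genes tested. None of these markers was called lower, although Elane, a neutrophil granule protease, had 860 counts in WT and 374 in KO (log2 ratio −0.76, −0.94 to −0.58). In WT, 5 eosinophil, 4 erythroid and 6 B lymphoid markers had no count, and in KO 4 erythroid and 1 B lymphoid marker had none. Of 3 markers that the gate excludes, 0 were called, and the interval of 2 lay above 0, against 19.2% of all genes tested. Flt3 had 98 counts in WT and 140 in KO (log2 ratio 0.95, 0.57 to 1.34). Cd34 had 957 and 829 (0.23, 0.10 to 0.37), and Cd48 had 12 and 11 (0.29, −1.01 to 1.62). Mki67, a proliferation marker, had 44 and 72 counts (log2 ratio 1.13, 0.59 to 1.73). The part of these cells in the histone values was not tested.

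Where the annotated transcript ends, and how much of its sequence is shared, went with whether a replication-dependent gene had counts. In 20 genes the transcript ended within 50 bases of the stem-loop, and these held 10 counts in WT and 9 in KO, with 13 genes at 0 in both. In 26 genes it ran further, by 840 bases in Hist1h1c, 1153 in Hist1h1e, 770 in Hist1h4d and 1643 in Hist3h2a. These 26 held 751 and 464 counts, and 7 were at 0 in both. In the remaining 22, among them Hist2h2be and Hist1h2bc, no stem-loop was found within 150 bases of the stop codon. These 22 held 144 and 92 counts, and 14 were at 0 in both. Within these 3 groups the summed log2 ratios were 0.29 (−1.19 to 1.74), −0.25 (−0.42 to −0.08) and −0.20 (−0.60 to 0.18), with overlapping intervals.

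Replication-dependent genes are near copies of each other, so reads can fit several of them. For each gene the share of 60-base windows found in no other annotated gene was counted. Windows in a gene that overlaps at the same place, on either strand, also counted as shared. Hist2h2bb, for example, had a share of 0% and shared windows only with the overlapping Gm20628 and Gm42743. The share therefore does not measure near-copy sequence alone. The median share was 53.3% over replication-dependent genes and 93.1% over variant genes, whose range was 65.1% to 100%. Of the 32 replication-dependent genes under 50%, 25 had no count in either library, and all 32 together had 6 counts in WT and 14 in KO. Of the 36 others, 9 had no count, and together they had 899 and 551 counts. Transcript end, shared sequence and total length overlap as features of the same genes, and their separate parts in the counts were not tested. Reads with several alignments were 10.7% of all entries in WT and 12.3% in KO, and they enter no gene count.

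**Figure D4:**
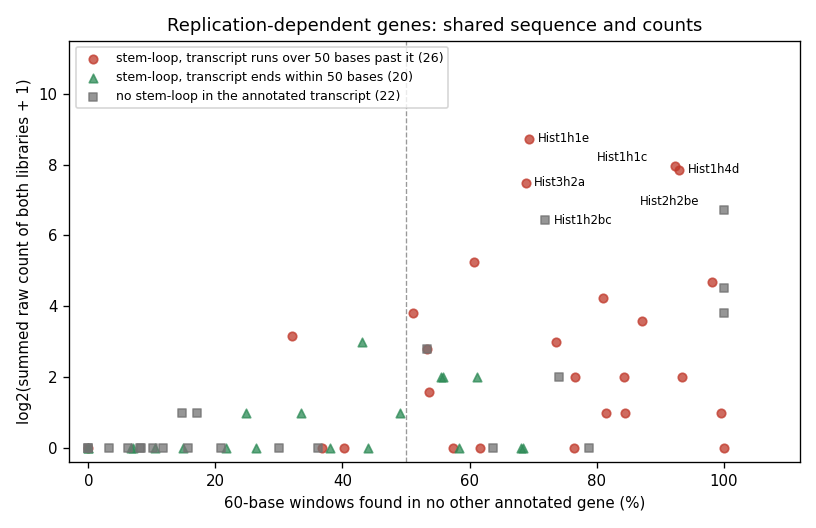
Each point is 1 of 68 replication-dependent genes, with the share of 60-base windows found in no other annotated gene on the horizontal axis and log2(summed raw count of both libraries + 1) on the vertical axis. Symbols give the end of the annotated transcript relative to the stem-loop, which was searched for only within 150 bases of the stop codon. The genes over 6 on the vertical axis all lie above 50%, and genes whose transcript ends near the stem-loop stay at or under 3.

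By genomic position, the 54 genes of the Hist1h cluster on chromosome 13 (GRCm38, chr13:21715763-23934851) held most counts, 704 in WT and 451 in KO, with 27 genes detected. The 10 Hist2h genes on chromosome 3 had 81 and 31 counts, nearly all from Hist2h2be. The 3 Hist3h genes on chromosome 11 had 120 and 80 counts, and Hist4h4 on chromosome 6 had 0 and 3. Detection was thus not confined to a single cluster. Of the replication-dependent genes 63 had a single exon in every annotated transcript, against 8 of 16 variant genes.

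Variant genes differed little between the libraries, and the largest ratio in either direction was below 1.5-fold. The H3.3 genes H3f3a and H3f3b, which encode the same protein for deposition outside S phase, held 56.9% of the variant counts in WT and 55.5% in KO. H3f3b had 8955 and 9142 normalised counts (log2 ratio 0.03, −0.01 to 0.07), the narrowest interval of all members. H3f3a had 4171 and 3478 counts, or 3579 and 4053 normalised counts (log2 ratio 0.18, 0.11 to 0.24). The excess of H3f3b over H3f3a by length was 2.95 times in WT and 2.66 times in KO. H3f3a overlaps an antisense gene, H3f3aos, and the strand setting of the counting is not given in the sources used here.

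The H2A variants spanned both directions. H2afz, encoding H2A.Z of promoters and enhancers, had 2754 counts in WT and 2067 in KO, or 2363 and 2409 normalised counts (log2 ratio 0.03, −0.06 to 0.11). Its paralog H2afv had 594 and 498 counts, or 509.7 and 580.3 normalised counts (log2 ratio 0.19, 0.01 to 0.36). H2afx, the variant phosphorylated at DNA breaks, had 669 and 469 counts (log2 ratio −0.07, −0.24 to 0.10). H2afz and H2afx did not differ beyond counting error, and the interval of H2afv only just left 0. H2afj had 456 and 271 counts, or 391.3 and 315.8 normalised counts, with a log2 ratio of −0.31 (−0.53 to −0.09).

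The macroH2A genes, whose products carry a large nonhistone domain and are known from silent chromatin, lay on opposite sides of 0. H2afy had 4333 counts in WT and 4181 in KO, or 3718 and 4872 normalised counts, with a log2 ratio of 0.39 (0.33 to 0.45), or 1.31-fold, the highest among variants. H2afy2, named after its values were seen, had 78 and 39 counts, or 66.9 and 45.4 normalised counts, and a log2 ratio of −0.55 (−1.15 to 0.01) whose interval included 0. By length H2afy exceeded H2afy2 by 17.7 times in WT and 34.2 times in KO over merged exons, and by 59.1 and 114 times over the longest coding transcripts. H2afy2 overlaps Aifm2 on the other strand, which had 193 and 138 counts, so part of its reads could not be assigned with certainty. Without H2afy the summed log2 ratio of the variants was 0.04, against 0.11 with it (0.08 to 0.14).

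The linker variants H1f0 and H1fx were both expressed. H1f0, the replacement H1 of quiescent and differentiated cells, had 1976 counts in WT and 1426 in KO, or 1696 and 1662 normalised counts (log2 ratio −0.03, −0.13 to 0.07). H1fx had 226 and 128 counts, or 193.9 and 149.2 normalised counts (log2 ratio −0.38, −0.70 to −0.06). H1f0 did not differ beyond counting error, while the interval of H1fx lay below 0 and its ratio was 1.30-fold. H1f0 exceeded H1fx by 5.18 times by length in WT and by 6.60 times in KO. The variant H1 sum of 2202 and 1554 counts, with a log2 ratio of −0.06 (−0.16 to 0.03), had an interval that included 0.

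Levels between genes were compared as CPM per kilobase of merged exons, with exact Poisson 95% intervals. H3f3b was first in both libraries, at 608 (597 to 620) in WT and 634 (620 to 648) in KO. H2afz followed at 269 and 280, then H3f3a at 207 and 239, H1f0 at 167 in both, H2afy at 110 and 148, H2afx at 83.9 and 81.5, H2afv at 63.1 and 73.4, H2afj at 43.2 and 35.6 and H1fx at 32.2 and 25.3. The 9 most abundant members were thus all variants in both libraries. Hist1h1e, the first replication-dependent gene in WT, had 25.4 (22.5 to 28.5) and 17.3 (14.6 to 20.5), and Hist1h4d, the first in KO, had 20.9 (17.5 to 24.7) and 19.7 (15.9 to 24.1). Hist1h1c came next at 18.5 (15.8 to 21.5) and 12.3 (9.78 to 15.4). Neighbouring intervals overlapped for H1fx with Hist1h1e, Hist1h1e with Hist1h4d and Hist1h4d with Hist1h1c in WT. In KO they overlapped for H2afx with H2afv and for every neighbouring pair from H1fx down to Hist1h2bc. Hist3h2a at 8.81 and 7.85 and Hist1h2bc at 7.51 and 7.28 completed the 5 most abundant replication-dependent genes, with overlapping intervals in both libraries. The place of H2afy depended on the length used: over its longest coding transcript it stood at 367.5 and 491.5, rank 3 in WT and rank 2 in KO.

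Genes that make and handle histones had ratios in both directions. Of 24 genes of histone transcription and mRNA processing, all tested, 0 were called, against the 5.11% of all genes tested given above, with a median log2 ratio of 0.02, 13 above and 11 below 0. The 95% interval lay below 0 for 8 of them and above it for 4, against 20.8% and 19.2% of all genes tested. The outermost of these 12, named after their values were seen, were Cstf1, a cleavage stimulation factor subunit, with 512 counts in WT and 230 in KO (log2 ratio −0.71, −0.94 to −0.49), and Ttf2, a transcription termination factor, with 111 and 146 (0.83, 0.47 to 1.21). Slbp, which encodes the stem-loop binding protein, had 594 counts in WT and 443 in KO (log2 ratio 0.02, −0.16 to 0.20). Npat, the activator of replication-dependent genes, had 213 and 169 (0.11, −0.19 to 0.41), and Casp8ap2, a component of the histone locus body, had 145 and 127 (0.25, −0.10 to 0.60). Slbp, Npat and Casp8ap2 did not differ beyond counting error.

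Of 34 histone chaperones and assembly genes, 0 were called, against the same 5.11%, and the median log2 ratio was −0.05. The interval lay below 0 for 9 and above it for 7, against 20.8% and 19.2% of all genes tested. Named after their values were seen, Tonsl, which binds new H3-H4 at replication forks, had 140 counts in WT and 58 in KO (log2 ratio −0.82, −1.30 to −0.38), and Rbbp4, an H4-binding protein, had 1344 and 1252 (0.34, 0.23 to 0.45). Hira, which deposits H3.3, had 55 counts in WT and 48 in KO (log2 ratio 0.24, −0.34 to 0.83). Asf1a and Asf1b, the H3-H4 chaperones, had 261 and 183 (−0.07) and 151 and 105 (−0.08), and Chaf1a, of the chromatin assembly factor, had 241 and 192 (0.11). The intervals of Hira, Asf1a, Asf1b and Chaf1a spanned 0. Cenpa, the centromeric H3 variant that the symbol rule did not take, had 141 and 153 counts, or 121.0 and 178.3 normalised counts (log2 ratio 0.56, 0.22 to 0.90), short of 2-fold.

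Of 32 DNA replication and proliferation genes, 1 was called higher in KO, Mki67, and 0 lower, against 5.11% called of all genes tested, with a median log2 ratio of −0.07, 13 above and 19 below 0. The interval lay below 0 for 7 and above it for 5, against 20.8% and 19.2% of all genes tested. Named after their values were seen, Mcm2, a subunit of the replicative helicase, had 1393 counts in WT and 770 in KO (log2 ratio −0.41, −0.54 to −0.29), and Birc5, a mitotic regulator, had 103 and 127 (0.74, 0.36 to 1.13). Pcna, the sliding clamp of the replication fork, had 843 counts in WT and 591 in KO (log2 ratio −0.07, −0.23 to 0.08). The summed normalised count of the list in KO was 0.906 times that in WT. It was 0.848 times for the replication-dependent histone genes and 0.980 times for all genes. Both sets held genes with ratios on either side of 0, and a link between the sums was not tested. The lists were chosen with earlier results of these data known, and their counts describe these libraries only.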

How the data were processed

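The authors aligned reads to mm10 with TopHat2 2.0.13 and Bowtie2 2.1.0 (submitters' processing notes) and deposited raw counts per gene, 1 file per library. The study's methods name StringTie for raw counts, whereas the files end in entries of the kind htseq-count writes; the strand setting is not given in the sources used here. The 5 entries that name no gene were left out; of all entries in WT and KO, 44.9% and 44.1% fell in no gene. Counts were divided by DESeq2 1.42.0 size factors of 1.17 (WT) and 0.858 (KO). Genes with a mean of at least 1 CPM were tested with an exact two-sided binomial test of both counts, with the share expected from the size factors, adjusted by Benjamini-Hochberg in Python 3.11.15 (scipy 1.17.1). The test was checked on simulated counts with Poisson noise only, which does not cover variation from PCR or between animals. The test compares libraries, not conditions. Log2 ratios used a pseudocount of 1, intervals none (Clopper-Pearson, 95%). Intervals cover counting error only. They treat reads as independent, although reads were PCR copies without molecular identifiers, so they may be too narrow. Positions, lengths and sequences came from GENCODE M21 (GRCm38, the mm10 assembly), in which all 84 members matched; the authors' annotation may differ. Members and lists were chosen with earlier results of these data known. Named members were those called, those whose mean normalised count was 100 or more, and the 5 most abundant per class by length; Hist1h1a, Hist1h1b, Hist1h1d, Hist1h2ac, Hist1h2ae, Hist1h2bg, Hist1h3e, Hist2h2be and H2afy2 were named after their values were seen. Alternatives concerned scaling, filters, thresholds, thinning and shared sequence.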

Additional observations from a re-analysis of the deposited data

Results flagged for a closer look

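Reads with several alignments lie outside every gene count and are the place where reads of near-identical histone genes would be put. They were 12.3% of all entries in the library labelled Ezh2 KO (95% interval 12.25 to 12.29) and 10.7% in WT (10.73 to 10.77), 1.14 times as large a share. The genes these reads came from were not analysed here, and their part in the histone counts was not tested. No group held enough libraries for a check of outlying samples.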

How the results depend on the processing

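Of 114 values recomputed under alternatives, 105 kept their side of the threshold or moved little. They include the median log2 ratio of the variant genes, −0.001, which crossed 0 by less than 0.1 to 0.0014 with the trimmed mean of M values, 0.029 with total-count scaling and 0.0057 after thinning. The median log2 ratio of the replication-dependent genes, 0.11, became −0.014 after thinning to equal depth, −0.58 at a minimum of 10 CPM and 0.89 over all genes with a count; the cause of the first was not tested, while the other settings keep other genes. The number of replication-dependent genes called, 0, became 2 at 1.5-fold (Hist1h1c, Hist2h2be), 3 without a fold limit (also Hist1h1e) and 1 at an adjusted value below 0.05 (Hist1h2ac), and that of variant genes became 2 without a fold limit (H2afy, H3f3a). The ratio of the variant share, KO over WT, was 1.14 without the most abundant member. The log2 ratio of H1f0 became 0.0006003 under total-count scaling, which set the median of all genes tested at 0.03. Of 70 values for single genes, 69 kept their direction. The alternatives with shared-sequence genes left out and with coding-transcript length were chosen after seeing the data. For both groups, 1 library was given. No paired analysis was possible because replicates were lacking. For the same reason edgeR's quasi-likelihood test, DESeq2's test and leaving out a replicate were not run, whereas edgeR's exact test at an assumed coefficient of variation of 0.2 or 0.4 called 0 genes in either class, and the genome-wide search for shared windows was not run because only transcripts were used. With 1 library per group, differences between animals, sorts and library preparations cannot be told apart from genotype, and the depth leaves most replication-dependent genes under the floor of 3 counts.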
